A study of Mus musculus with 2 samples.

Results

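Choroid plexus epithelial cells, the epithelium of the brain ventricles that makes the cerebrospinal fluid, were examined in a single-cell library of mouse brain. They were chosen by their transcripts. A barcode of the CD45-negative library was taken where it held at least 1000 UMIs (unique molecular identifiers, each 1 captured transcript molecule) and at most 20% mitochondrial UMIs, and where at least 3 of the 7 genes Prr32, Krt18, Slpi, Folr1, Kl, Clic6 and Ecrg4 had a UMI. The endothelial genes Cldn5, Flt1 and Adgrl4 had to stay below 20 UMIs per 10000 in sum, and the astrocyte genes Slc1a2 and Aqp4 below 30. This gave 205 cells of the 12881 that passed the same UMI and mitochondrial limits, or 1.59% (1.38 to 1.82), and of 20649 such cells in both libraries. The same rule found 2 of 7768 cells in the CD45-positive library, with 658 and 36.0 Ttr UMIs per 10000 and with 0 Ptprc UMIs each.

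Both libraries came from brains of C57BL mice aged 8 to 13 weeks in an NMOSD-like state, a model of neuromyelitis optica spectrum disorder, at the 24 h time point. One library held the CD45-negative and the other the CD45-positive brain cells, CD45 being the surface protein of leukocytes. Each group is 1 library, and the labels state neither how many mice it pools, nor how the model was induced, nor the event from which the 24 h are counted. No untreated library was analysed here, so each value below describes cells of the model at 24 h and not a response to it. No difference has a replicate check and no test was made. The 95% intervals given in parentheses reflect only the error of counting molecules. They are exact Poisson intervals for CPM (UMIs summed over cells, per 1000000), exact conditional binomial intervals for ratios and Clopper-Pearson intervals for shares of cells. The other 12676 CD45-negative cells are called the rest.

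The choroid plexus is a sheet of cuboidal epithelium around fenestrated vessels. Its tight junctions form the barrier between blood and cerebrospinal fluid, its pumps and channels drive fluid secretion, and it loads the fluid with carrier proteins such as transthyretin. It is also known as a site where leukocytes enter the ventricles and where cytokines of the blood reach the brain.

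The label was checked against markers that the rule had not used. All 16 independent choroid plexus markers were at least 4-fold higher in the 205 cells than in the other 12676 CD45-negative cells. Ttr, which encodes the thyroid hormone and retinol carrier transthyretin, stood at 126753 CPM (126305 to 127203) in these cells against 282 CPM (279 to 286) in the rest, or 449-fold (443 to 455) higher. It took 12.7% of all their UMIs. Over single cells its lowest, median and highest level was 0, 1118 and 3971 UMIs per 10000. Ttr was also found in 59.6% of the other cells, at the level given above, so a single Ttr UMI does not mark a cell and its level was used here. The potassium channel genes Kcnj13 (237 CPM in these cells and 3.05 in the rest) and Kcne2 (112 CPM in these cells and 0.349 in the rest), the serotonin receptor gene Htr2c (41.8 CPM in these cells and 0.338 in the rest) and the homeobox gene Otx2 (224 CPM in these cells and 11.3 in the rest) were among the 16. As the cells were picked on genes known to be expressed with these, the markers check the label and are no finding.

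The label held for 199 of the 205 cells and went against the data for 6. The 199 cells had at least 100 Ttr UMIs per 10000, and they include every cell with 4 or more of the rule genes. At exactly 3 rule genes, the lowest number allowed, stood 14 cells, with a median of 281 Ttr UMIs per 10000 and a range of 0 to 3484. Of these 14 cells, 6 had between 0 and 2.31 Ttr UMIs per 10000. The same 6 cells carried 8 to 10 of 10 ependymal markers, at 38.3 to 113 UMIs per 10000, where the median over all 205 cells was 4.73. Just outside the rule and within its other limits, 13 cells had 2 of the 7 genes with a median of 2.79 Ttr UMIs per 10000, and 5 of them reached 100. The limits for astrocyte and endothelial genes had kept out 8 and 3 cells with enough rule genes. Values below cover all 205 cells unless the 199 cells are named. Where leaving out the other 6 moved the level given for a gene by more than 1.5 times, the level in the 199 cells is given too.

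**Figure D1:**
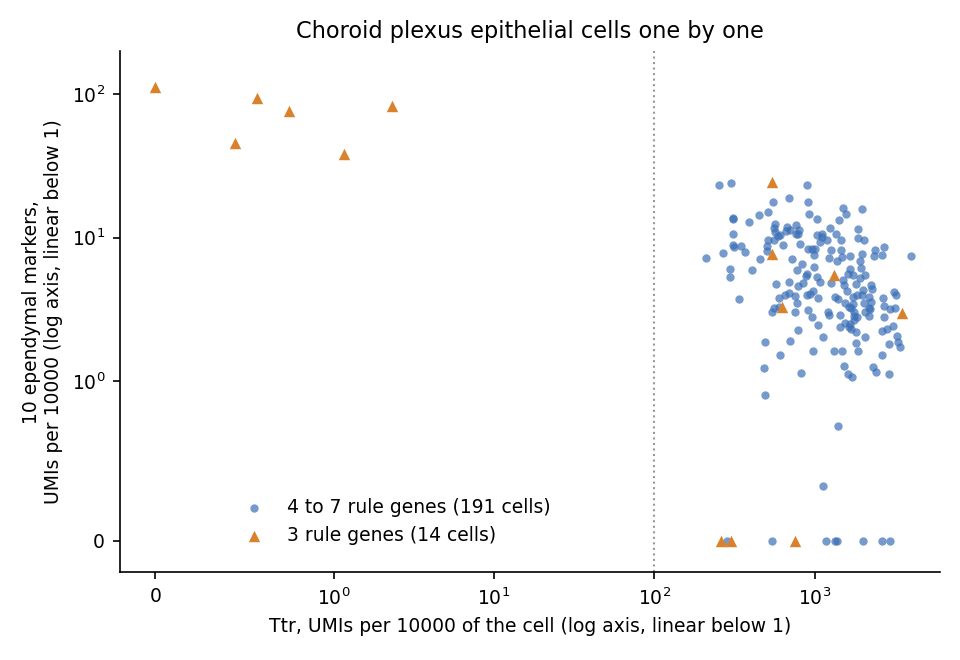
Each point is 1 of the 205 cells, with its Ttr level on the x axis and the sum of 10 ependymal markers on the y axis, both in UMIs per 10000 of the cell; the dotted line marks 100 Ttr UMIs per 10000. The 6 cells at the upper left, all with 3 rule genes, lie apart from the other 199.

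The 205 cells were deep and low in mitochondrial UMIs. They held 2419032 UMIs, with a median of 10346 UMIs and 2861 genes per cell against 5832.5 UMIs and 2388 genes in the rest, and a median mitochondrial share of 1.60% against 3.25% in the rest. None of the 205 cells had a UMI of Ptprc, the CD45 gene. Of 10 microglia and macrophage markers 5 were at 0 UMIs and their sum stood at 26.0 CPM in the 205 cells, against 314 in the rest. Fibroblast markers summed to 1246 CPM in the 205 cells and 3067 in the rest, with Col1a1 and Slc6a13 at 0 in the 205. The fibroblast list includes Igf2, which also counts among the independent choroid plexus markers. Oligodendrocyte markers summed to 1592 CPM in the 205 cells and 12153 in the rest, with none at 0. Astrocyte markers summed to 639 CPM in the 205 cells and 8206 in the rest. More than 50 UMIs per 10000 of oligodendrocyte, astrocyte, pericyte, fibroblast and neuron markers were reached by 6, 4, 4, 3 and 2 cells. Scrublet, which scores each barcode against simulated doublets, called 7 of the 205 cells and 876 of all 14524 barcodes, or 6.03%. No barcode of these cells was found in the CD45-positive library, although the libraries shared 27 barcodes.

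Of 10688 genes with at least 10 CPM in either sum, rule genes left out, 698 or 6.53% were at least 4-fold higher in choroid plexus epithelial cells than in the rest and 2489 or 23.3% at least 4-fold lower. The median log2 ratio over these genes was -0.78 with both sums scaled to their total UMIs. It was -0.25 scaled by TMM, -0.10 by the median of ratios and -0.59 with Ttr left out of the totals. By TMM 1034 genes were higher and 1557 lower, and by the median of ratios 1175 and 1333, so the share of higher genes depends on the scaling. Gene lists are described below by their count past 4-fold and their median, to be read against those shares and that median. Lists and members were drawn up with earlier results of these data known.

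**Figure D2:**
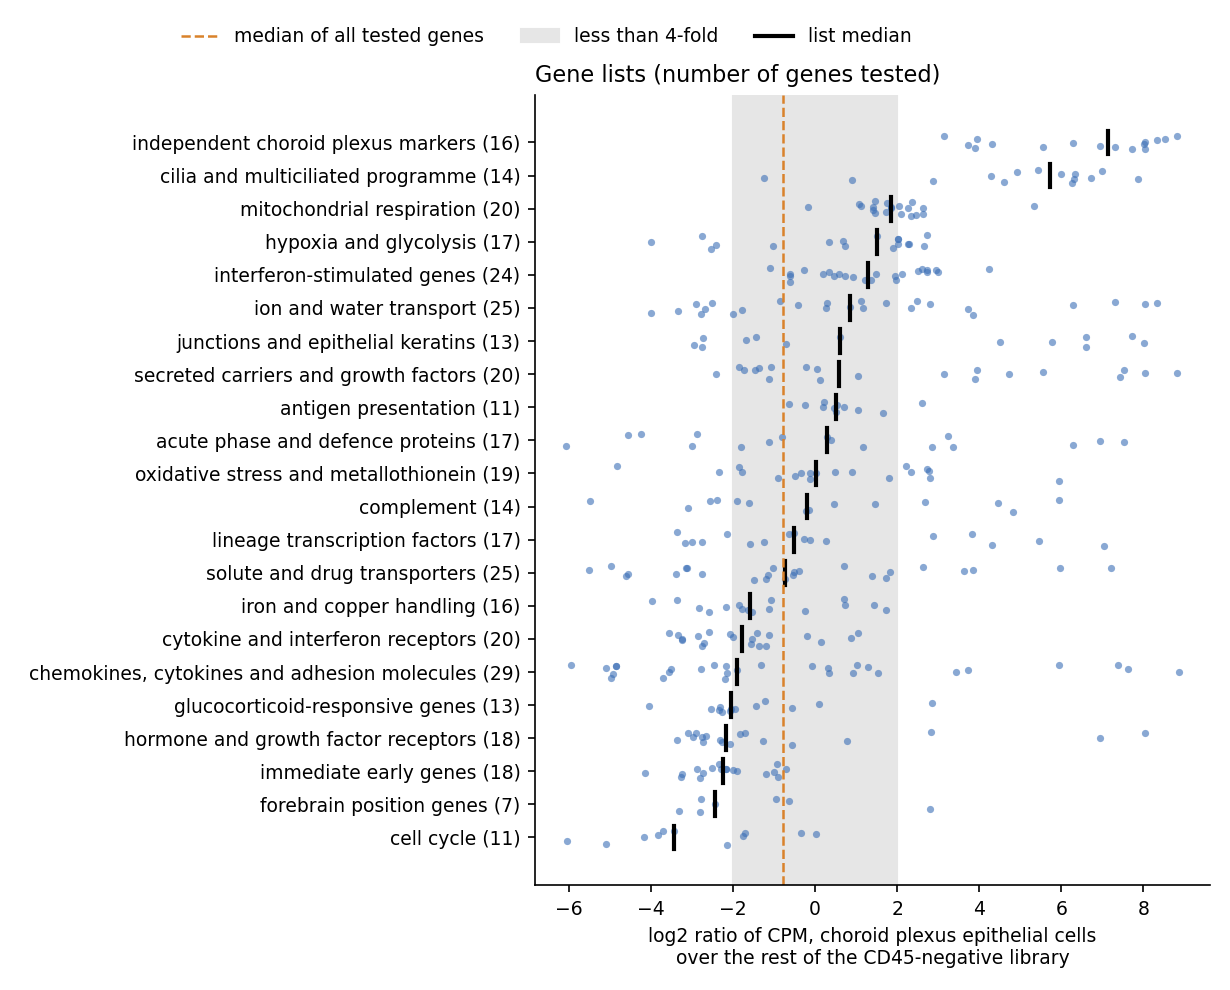
Each point is 1 tested gene, with the log2 ratio of CPM in choroid plexus epithelial cells over the rest of the CD45-negative library on the x axis and the gene list on the y axis, ordered by list median (black bar). The independent choroid plexus markers lie highest with a median of 7.13 and the cell cycle genes lowest with -3.44; the dashed line is the median of all tested genes at -0.78.

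The genes that chose the cells are given as a description. Folr1, the folate receptor that carries folate across this epithelium, was found in 192 of 205 cells (93.7%, 89.4 to 96.6), and Ecrg4, which encodes a secreted peptide precursor, in 202 of 205 cells (98.5%, 95.8 to 99.7). Krt18, an epithelial keratin, was found in 184 cells, Clic6, a chloride channel family member, in 178, and Kl, the anti-ageing hormone klotho, in 167. Prr32 was found in 126 cells. Slpi, a secreted inhibitor of leukocyte proteases, was the least common of the 7, in 71 cells, with 628 CPM (597 to 661) in these cells against 4.18 CPM (3.77 to 4.63) in the rest. Over single cells its lowest, median and highest level was 0, 0 and 109 UMIs per 10000, so most cells had none and a few had much.

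Secreted carriers and growth factors are the products this epithelium gives to the fluid. Of 20 tested, 9 were at least 4-fold higher in choroid plexus epithelial cells and 1 at least 4-fold lower, with a median log2 ratio of 0.59. Enpp2, the lysophospholipase autotaxin, stood at 4219 CPM (4138 to 4302) in these cells against 282 CPM (279 to 286) in the rest. Igf2, a growth factor, stood at 283 CPM in these cells and 18.3 in the rest, and its binding protein Igfbp2 at 632 CPM in these cells and 71.4 in the rest. Ace, the angiotensin converting enzyme, stood at 192 CPM in these cells and 7.29 in the rest, and Sostdc1, a secreted antagonist of BMP and Wnt signals, at 98.0 CPM in these cells and 0.372 in the rest. Wfdc2, which encodes a WAP domain protein, stood at 214 CPM in these cells and 1.17 in the rest, and Spint2, a protease inhibitor of epithelia, at 325 CPM in these cells and 1.89 in the rest. Vegfa, which keeps choroid plexus vessels fenestrated, was the gene at least 4-fold lower, at 25.6 CPM in these cells and 136 in the rest, but not by TMM or the median of ratios. Carriers that glia also make in quantity were between these limits, among them Apoe (2007 CPM in these cells and 5194 in the rest), Trf (1169 CPM in these cells and 2472 in the rest) and Ptgds (2086 CPM in these cells and 7566 in the rest). Wfdc2 stood at 253 CPM (186 to 337) in the ependymal-marked cells described below, so it is not particular to this epithelium.

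The ion transport machinery that moves sodium, chloride, bicarbonate and water into the fluid was uneven. Of 25 genes tested, 9 were at least 4-fold higher and 6 at least 4-fold lower, with a median log2 ratio of 0.85. Higher were the bicarbonate transporters Slc4a5 (38.4 CPM in these cells and 0.146 in the rest) and Slc4a10 (64.5 CPM in these cells and 4.45 in the rest), the membrane carbonic anhydrase Car12 (73.6 CPM in these cells and 0.462 in the rest), the water channel Aqp1 (23.1 CPM in these cells and 1.75 in the rest), the cation channel Trpv4 (23.6 CPM in these cells and 3.39 in the rest), and the sodium pump regulator Fxyd1 (845 CPM in these cells and 150.2 in the rest). The kinase Stk39, which activates the chloride cotransporter Slc12a2, stood at 265 CPM in these cells and 52.1 in the rest. Slc12a2 itself, a main route of fluid secretion here, stood at 207 CPM in these cells and 275 in the rest, which is less than 4-fold apart. So was the sodium pump subunit Atp1b1, at 479 CPM in these cells and 145 in the rest. Lower were transporters of glia and vessels, among them the astrocyte bicarbonate transporter Slc4a4 (42.6 CPM in these cells and 683 in the rest), the pump subunit Atp1b2 (105 CPM in these cells and 676 in the rest) and Car4 (17.4 CPM in these cells and 129 in the rest). Aqp1 was found in only 41 cells, and its level rests on 56 UMIs.

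Junction and keratin genes give an epithelium its seal and its frame. Of 13 tested, 6 were at least 4-fold higher and 3 at least 4-fold lower, with a median log2 ratio of 0.61. Cldn2, the claudin that forms cation and water pores, stood at 45.1 CPM in these cells and 0.214 in the rest, Cldn1 at 21.5 CPM in these cells and 0.394 in the rest, the scaffold gene Tjp3 at 26.0 CPM in these cells and 0.270 in the rest, the polarity gene Crb3 at 24 CPM in these cells and 0.248 in the rest, the epithelial adhesion gene Epcam at 10.7 CPM in these cells and 0.473 in the rest and the keratin gene Krt8 at 138 CPM in these cells and 0.530 in the rest. Cldn3 had 21 UMIs and stood below the limit for testing in both sums. The junction scaffold Tjp1 (27.7 CPM in these cells and 185 in the rest), Cldn11, a claudin of myelin (150.1 CPM in these cells and 1007 in the rest), and neural cadherin Cdh2 (28.9 CPM in these cells and 223 in the rest) were lower.

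Solute and drug transporters split in a similar way, with 5 of 25 tested genes at least 4-fold higher, 8 at least 4-fold lower and a median log2 ratio of -0.74. By TMM 7 and by the median of ratios 8 were higher. The organic anion transporter Slco1a5 (13.2 CPM in these cells and 0.0901 in the rest), the sulfate transporter Slc13a4 (57.9 CPM in these cells and 0.924 in the rest), the monoamine transporter Slc29a4 (34.3 CPM in these cells and 2.77 in the rest), the sugar transporter Slc2a12 (52.9 CPM in these cells and 8.56 in the rest) and Abca4 (28.1 CPM in these cells and 1.95 in the rest) were higher. The efflux pumps of brain vessels, Abcb1a (2.07 CPM in these cells and 94.3 in the rest) and Abcg2 (2.48 CPM in these cells and 60.2 in the rest), the glucose transporter Slc2a1 (53.7 CPM in these cells and 362 in the rest) and the anion transporter Slco1a4 (7.03 CPM in these cells and 165 in the rest) were lower. Slco1a4 and Slco1a5 are close relatives that may share reads, so their single values are uncertain. Slc22a17, a receptor for lipocalin 2, stood at 396 CPM in these cells and 112 in the rest, a ratio of 3.54-fold (3.31 to 3.78).

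Receptors for hormones and growth factors had 3 of 18 tested genes at least 4-fold higher and 10 at least 4-fold lower, with a median log2 ratio of -2.18. By TMM 7 and by the median of ratios 6 were lower. The 3 were Prlr, the prolactin receptor (209.6 CPM (192 to 229) in these cells against 0.800 CPM (0.625 to 1.01) in the rest), Htr2c, given above, and Lepr, the leptin receptor (10.3 CPM in these cells and 1.45 in the rest). Prlr was found in 113 cells, and 10 of them held 53.1% of its UMIs. The receptors for insulin, Insr (7.85 CPM in these cells and 80.5 in the rest), and for IGF1, Igf1r (25.2 CPM in these cells and 198 in the rest), were lower than in the rest, while Igf2r, which binds Igf2, stood at 37.6 CPM in these cells and 21.9 in the rest.

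Ciliary genes were present, as in an epithelium that carries tufts of cilia and is akin to the ependyma. Of 14 tested, 12 were at least 4-fold higher in the 205 cells than in the rest, with a median log2 ratio of 5.71. In the 199 cells with Ttr 8 were higher and 1, Fam183b, lower, with a median of 3.86. The genes that fell out were Ccdc153, Tmem212, Fam183b and Dnah5. Tmem212 stood at 47.1 CPM over the 205 cells but had 0 UMIs in the 199. Ccdc153, Fam183b and Dnah5 stood at 35.6, 44.2 and 12.8 CPM over the 205 cells and at 0.430 CPM each, or 1 UMI, over the 199, so nearly all their UMIs lay in the 6 cells without Ttr. Genes of ciliary assembly and structure that stayed in the 199 cells were Rsph1 (206 CPM in the 199 cells, 1.81 in the rest), Dynlrb2 (154 CPM in the 199 cells, 1.70 in the rest) and Pifo (115 CPM in the 199 cells, 0.541 in the rest). Foxj1, the master regulator of motile cilia, stood at 51.2 CPM in the 199 cells against 10.6 in the rest. In 22 ependymal-marked cells, which are no members and carry at least 4 of the 10 ependymal markers, Foxj1 stood at 690.0 CPM (576 to 820.4). The 10 ependymal markers together stood at 863 CPM in the 205 cells and 607 in the 199, against 21.1 in the rest and 3946 in the ependymal-marked cells. None of the 10 was at 0 over the 205 cells.

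Transcription factors of the lineage and of position were examined next. Of 17 lineage factors, 5 were at least 4-fold higher and 5 at least 4-fold lower. Their median log2 ratio was -0.51, and 0.02 or 0.17 by TMM or the median of ratios, so its sign depends on the scaling. Otx2, needed to form and maintain the choroid plexus, was found in 154 of 205 cells (75.1%, 68.6 to 80.9), Msx1 in 149 cells (212 CPM in these cells and 4.86 in the rest) and Lmx1a, a roof plate factor, in 24 cells (10.3 CPM in these cells and 0.0789 in the rest). None of 19 Hox genes, which mark the hindbrain, had a UMI in the 205 cells, which allows, with 3 UMIs or 3 cells taken as the limit of a count of 0, up to 1.24 CPM for their sum and a share of cells with a UMI of up to 1.46%. In the rest 34 of 12676 cells had one, so the assay detected little of them anywhere. Six3, a forebrain factor, was found in 97 of 205 cells (47.3%, 40.3 to 54.4) at 71.9 CPM in these cells and 10.4 in the rest, while Lhx2 (5.79 CPM in these cells and 57.3 in the rest), Dlx1 (14.5 CPM in these cells and 98.9 in the rest) and Dlx2 (8.68 CPM in these cells and 47.3 in the rest) were lower. Of 7 forebrain factors tested 1 was at least 4-fold higher and 4 at least 4-fold lower, these among them, with a median log2 ratio of -2.45. The ventricles from which the cells came are not given in the labels.

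Genes of energy metabolism stood high relative to the rest. Of 20 nuclear genes of the respiratory chain and creatine kinases, 9 were at least 4-fold higher and none at least 4-fold lower, with a median log2 ratio of 1.85. By TMM 13 and by the median of ratios 17 were higher. Of the cytochrome oxidase subunits, Cox8a stood at 3812 CPM in these cells and 618 in the rest and Cox6c at 3271 CPM in these cells and 591 in the rest, and Ndufa4 stood at 2393 CPM in these cells and 384 in the rest. Cox8b, the muscle and brown fat form of the subunit that Cox8a encodes, stood at 405 CPM (380.1 to 431) in these cells against 0.800 CPM (0.625 to 1.01) in the rest and was found in 107 cells. Ckmt1, the mitochondrial creatine kinase, stood at 19 CPM in these cells and 0.473 in the rest. Of 17 glycolysis and hypoxia genes, 7 were at least 4-fold higher and 4 at least 4-fold lower, with a median log2 ratio of 1.5. By the median of ratios 9 were higher and 2 lower. All 7 encode glycolytic enzymes, among them Ldha (769 CPM in these cells and 116 in the rest) and Pgk1 (752 CPM in these cells and 120.3 in the rest), and the 4 lower genes were Vegfa, Slc2a1, Hk2 (1.24 CPM in these cells and 19.9 in the rest) and Ddit4 (30.2 CPM in these cells and 175 in the rest). Many genes of both lists have processed pseudogenes with which reads may be shared. Among antioxidant enzymes, Gpx3, a secreted glutathione peroxidase, stood at 248 CPM in these cells and 4.06 in the rest, Gpx4 at 3161 CPM in these cells and 482 in the rest and mitochondrial Sod2 at 773 CPM in these cells and 113 in the rest. Of the 19 genes of that list 6 were at least 4-fold higher and 2 lower, with a median log2 ratio of 0.02, and by TMM or the median of ratios 7 were higher and 1 lower. The metallothionein genes Mt1 (1926 CPM in these cells and 6594 in the rest) and Mt2 (339.8 CPM in these cells and 1237 in the rest), abundant in glia, were lower by less than 4-fold.

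Iron and copper genes, of interest because this epithelium exchanges metals between blood and fluid, had none of 16 tested at least 4-fold higher and 5 at least 4-fold lower, with a median log2 ratio of -1.59. By TMM 1 was higher and 4 lower, and by the median of ratios 2 and 3. Of the ferritin chains, which store iron, Fth1 stood at 15299 CPM in these cells and 9475 in the rest and Ftl1 at 1282 CPM in these cells and 771 in the rest. The transferrin receptor Tfrc stood at 17.8 CPM in these cells and 108 in the rest, and the iron exporter ferroportin, Slc40a1, had 2 UMIs in the 205 cells against 13.0 CPM in the rest. The copper transporter Slc31a1 stood at 107 CPM in these cells and 32.4 in the rest.

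By level, leaving out mitochondrial and ribosomal protein genes, the 15 most abundant transcripts began with Ttr, Fth1, Malat1, Gm42418 and Enpp2. Housekeeping genes came next, with Ppia at 4098 CPM in these cells and 1476 in the rest, Tpt1 at 4074 CPM in these cells and 1920.0 in the rest, Ubb at 3888 CPM in these cells and 1447 in the rest and Eef1a1 at 3459.7 CPM in these cells and 2048 in the rest. The glycolytic enzyme gene Gapdh stood at 3241 CPM in these cells and 803 in the rest. Cox8a, Cox6c, Gpx4 and Ifitm3, described in their lists, were also among the 15. Mt3, a metallothionein of the brain, closed the order at 3158 CPM in these cells and 1178 in the rest.

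A pair of matrix metalloproteinases stood near the head of the whole comparison. By the ratio over the rest, among genes outside the rule with at least 100 CPM in these cells, the order began with Mmp12, Smim22, Mmp3, Cox8b and 2900040C04Rik. Mmp3, stromelysin, which cleaves matrix proteins and activates other proteases (ENSMUSG00000043613; mm10 chromosome 9, 7445822 to 7455975, plus strand, protein coding), stood at 1231 CPM (1187 to 1276) in these cells against 2.40 CPM (2.09 to 2.74) in the rest, or 513-fold (446 to 592) higher. Mmp12, an elastase best known from macrophages (ENSMUSG00000049723; mm10 chromosome 9, 7344381 to 7369499, plus strand, protein coding), stood at 373 CPM (349 to 398) in these cells against 0.428 CPM (0.303 to 0.588) in the rest, or 871-fold (629.6 to 1239) higher. Mmp3 was found in 115 of 205 cells (56.1%, 49.0 to 63) and in 0.529% of the other cells, or in 43.0% of choroid plexus and 0.174% of the other cells with each cell thinned to 2000 UMIs. Mmp12 was found in 68 of 205 cells (33.2%, 26.8 to 40.1) and in 0.174% of the others, or in 23.5% of choroid plexus and 0.0435% of the other cells after thinning. In the CD45-positive library, which holds the leukocytes, Mmp12 stood at 1.40 CPM and Mmp3 at 0.119 CPM. No UMI of either gene was found in the 22 ependymal-marked cells, whose sum of 185500 UMIs allows up to 16.2 CPM with 3 UMIs taken as the limit of a count of 0. Over single choroid plexus cells the lowest, median and highest level was 0, 1.34 and 127 UMIs per 10000 for Mmp3 and 0, 0 and 153 for Mmp12, and 10 cells held 53.5% of all Mmp12 UMIs. Both genes were uneven, with many cells at 0 beside single cells above 100 UMIs per 10000. In oligodendrocyte-marked cells, a class with a median of 9309 UMIs per cell, 0.450% had a UMI of Mmp3 and 0.188% one of Mmp12.

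Other genes of the 25 highest by ratio came from several lists or from none. Smim22 stood at 223 CPM in these cells and 0.406 in the rest, 2900040C04Rik, a gene with no assigned name, at 1013 CPM in these cells and 2.03 in the rest, the calmodulin-like gene Calml4 at 1023 CPM in these cells and 2.79 in the rest, Ooep at 227 CPM in these cells and 0.913 in the rest, Wdr86 at 165 CPM in these cells and 0.721 in the rest and the photoreceptor disc gene Prcd at 123 CPM in these cells and 0.597 in the rest. F5, coagulation factor V, stood at 150.5 CPM in these cells and 1.0 in the rest, and Emb, the monocarboxylate transporter partner embigin, at 298 CPM in these cells and 3.35 in the rest. The ciliary gene Ccdc113 stood at 109 CPM in these cells and 0.586 in the rest, Cfap126 at 207 CPM in these cells and 2.63 in the rest and 1110017D15Rik at 207 CPM in these cells and 1.69 in the rest. Each of these was found in more than 50% of the 205 cells. Esm1, the proteoglycan endocan, stood at 149.6 CPM in these cells and 1.42 in the rest but was found in 39 of the 205 cells. Ependymal-marked cells had more of Ccdc113, Cfap126 and 1110017D15Rik, at 178, 404 and 286 CPM.

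The promoters of the first 4 genes in this order are shown because these genes, among those the rule did not use, stood furthest above the rest of the library. Each runs from 250 bases before to 50 bases after the start of the gene, 5′ to 3′ on the gene's strand, from RefSeq on GRCm38.p6. Mmp12 is at chr9:7344147-7344446 on the plus strand, Smim22, a small membrane protein gene, at chr16:5007038-5007337 on the plus strand, Mmp3 at chr9:7445572-7445871 on the plus strand and Cox8b at chr7:140900397-140900696 on the minus strand. Capitals mark a match to TGANTCA, the letters of the AP-1 site, in the Mmp3 sequence.
Mmp12: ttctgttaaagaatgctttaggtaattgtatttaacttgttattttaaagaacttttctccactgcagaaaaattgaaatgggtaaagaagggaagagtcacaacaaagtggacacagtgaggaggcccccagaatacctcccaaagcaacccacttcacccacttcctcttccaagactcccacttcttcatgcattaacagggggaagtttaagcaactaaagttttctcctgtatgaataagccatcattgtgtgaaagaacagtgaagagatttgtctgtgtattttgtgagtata
Smim22: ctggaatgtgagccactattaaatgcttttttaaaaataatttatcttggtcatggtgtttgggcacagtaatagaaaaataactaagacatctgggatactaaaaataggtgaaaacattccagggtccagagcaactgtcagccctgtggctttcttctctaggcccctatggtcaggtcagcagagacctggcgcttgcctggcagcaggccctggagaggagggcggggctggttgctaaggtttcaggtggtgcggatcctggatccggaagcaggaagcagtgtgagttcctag
Mmp3: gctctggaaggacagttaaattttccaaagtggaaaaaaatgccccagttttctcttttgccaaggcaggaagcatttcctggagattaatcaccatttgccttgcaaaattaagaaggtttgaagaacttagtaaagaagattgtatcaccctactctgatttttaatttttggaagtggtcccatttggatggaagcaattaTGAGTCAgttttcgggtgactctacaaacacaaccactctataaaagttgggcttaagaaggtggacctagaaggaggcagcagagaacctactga
Cox8b: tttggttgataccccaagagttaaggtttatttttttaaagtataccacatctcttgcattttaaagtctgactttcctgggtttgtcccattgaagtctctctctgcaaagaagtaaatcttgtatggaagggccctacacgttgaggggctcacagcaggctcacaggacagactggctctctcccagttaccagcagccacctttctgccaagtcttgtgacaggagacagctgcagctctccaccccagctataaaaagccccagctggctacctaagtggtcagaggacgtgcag
Each sequence was searched on both strands for GGATTA (the homeobox letters of OTX factors), TGANTCA and a pair of GAAA words with 2 bases between them (the core of an interferon-stimulated response element). The search found 1 match, TGAGTCA starting 46 bases before the start of Mmp3. Of 32851 promoters of the same length in the table, 7.06% hold GGATTA, 7.81% TGANTCA and 3.44% the GAAA pair. The table held 22 of the 25 genes highest by ratio, and for Mmp12 and Smim22 it held 2 promoters each, of which 1 is shown.

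Chemokines and adhesion molecules fell into a high and a low set. Of 29 tested, 6 were at least 4-fold higher in choroid plexus epithelial cells and 14 at least 4-fold lower, with a median log2 ratio of -1.91. By TMM or the median of ratios 7 were higher and 10 lower, with medians of -1.38 and -1.23. The 6 were the T cell attractant Ccl5 (353 CPM (329.8 to 378) in these cells against 26.9 CPM (25.8 to 28.0) in the rest), the neutrophil attractant Cxcl5 (167 CPM (152 to 185) in these cells against 2.73 CPM (2.39 to 3.09) in the rest), Ccl20, the ligand of the Th17 receptor Ccr6 (57.9 CPM (48.7 to 68.3) in these cells against 0.124 CPM (0.0619 to 0.222) in the rest), Cxcl9 (22.3 CPM in these cells and 0.135 in the rest), Cxcl16 (49.2 CPM in these cells and 4.53 in the rest) and Madcam1, a mucosal addressin (11.2 CPM in these cells and 0.0563 in the rest). Ccl5 was found in 51 and Cxcl5 in 36 of the 205 cells, and 10 cells held 61.4% of the Ccl5 and 79.3% of the Cxcl5 UMIs. Ccl20 was found in 40 of 205 cells (19.5%, 14.3 to 25.6) against 0.0631% of the rest, and Cxcl9 in 10 cells. Vcam1, an adhesion molecule for leukocytes, was found in 162 of 205 cells (79.0%, 72.8 to 84.4) against 25.9% of the rest, at 242 CPM in these cells and 84.0 in the rest, a ratio under 4. Icam1 stood at 17.8 CPM in these cells and 14.4 in the rest and Ccl2 at 74.0 CPM in these cells and 77.4 in the rest. The low set held chemokines of glia, vessels and macrophages, among them Cxcl12 (4.96 CPM in these cells and 168 in the rest), Cxcl14 (18.2 CPM in these cells and 215 in the rest), Ccl12 (0.827 CPM in these cells and 51.4 in the rest) and Ccl4 (0.827 CPM in these cells and 26.0 in the rest). Of the classic cytokines Il1b and Il6 had 2 UMIs each and Tnf 0 in the 205 cells.

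Markers of leukocytes were low in the sum over the 205 cells. The 10 markers of leukocytes other than microglia summed to 5.37 CPM in the 205 cells against 163 in the rest. Of the 10 markers 6, Ptprc among them, were at 0. Their sum in only the cells with a UMI of Ccl5, Cxcl5 or Cxcl9 was not tested.

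Acute phase and defence proteins had 6 of 17 tested genes at least 4-fold higher and 5 at least 4-fold lower. Lcn2, lipocalin 2, which binds bacterial siderophores, stood at 1349 CPM (1303 to 1396) in these cells against 188 CPM (185 to 191) in the rest, or 7.17-fold (6.91 to 7.45) higher, and was found in 114 of 205 cells (55.6%, 48.5 to 62.5) against 12.7% of the rest. Endothelial-marked cells had 1127 CPM of Lcn2, astrocyte-marked cells 194 and oligodendrocyte-marked cells 15.1, so the level in choroid plexus epithelial cells was near that of endothelial-marked cells. Lbp, which hands bacterial lipopolysaccharide to its receptor, stood at 377 CPM (353 to 402) in these cells against 3.09 CPM (2.73 to 3.48) in the rest, and the protease inhibitor A2m at 285 CPM in these cells and 30.1 in the rest. Lgals3, galectin 3, stood at 160.4 CPM in these cells and 15.7 in the rest and at 120.4 CPM in the 199 cells, and Orm2 at 19.4 CPM in these cells and 0.248 in the rest. Saa3, an acute phase amyloid, stood at 104 CPM in these cells and 79.6 in the rest, and the neutrophil proteins S100a8 (2.89 CPM in these cells and 54.5 in the rest) and S100a9 (1.24 CPM in these cells and 83.6 in the rest) were lower. The median log2 ratio of the list was 0.29 over the 205 cells and -0.02 over the 199, so its sign depends on the 6 cells. Ependymal-marked cells had more Lbp, at 561 CPM (458 to 679). The list summed to 8135 CPM in ependymal-marked cells and 3892 in choroid plexus epithelial cells.

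Complement genes bear on this disease, in which complement acts on astrocytes. Of 14 tested, 4 were at least 4-fold higher and 4 at least 4-fold lower. The median log2 ratio was -0.19, and 0.34, 0.49 or 0.01 by TMM, by the median of ratios or without Ttr in the totals, so its sign depends on the scaling. By the median of ratios 5 were higher and 2 lower. C3, the central component, stood at 163 CPM (148 to 180.2) in these cells against 2.67 CPM (2.34 to 3.03) in the rest, or 61.1-fold (51.9 to 72.1) higher, and was found in 101 of 205 cells (49.3%, 42.2 to 56.3) against 0.773% of the rest. Cfb, factor B of the alternative pathway, stood at 78.5 CPM (67.8 to 90.5) in these cells against 3.58 CPM (3.20 to 4.00) in the rest, C1ra, a protease of the classical pathway, at 47.1 CPM in these cells and 7.34 in the rest, and Cd55, which dissolves convertases on the cell's own surface, at 25.2 CPM in these cells and 0.890 in the rest. The membrane attack inhibitor Cd59a stood at 103 CPM in these cells and 37.5 in the rest and Serping1, the C1 inhibitor, at 28.9 CPM in these cells and 31.9 in the rest. C4b (34.7 CPM in these cells and 183 in the rest, 22.4 in the 199 cells, and uncertain for its near-identical neighbour C4a), Vtn (141 CPM in these cells and 831 in the rest) and the microglial C1qa (2.07 CPM in these cells and 92.9 in the rest) were lower. Ependymal-marked cells had 318 CPM (242 to 410.3) of C3 and no UMI of Cfb.

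Interferon-stimulated genes stood above the median of all genes as a list. Of 24 tested, 8 were at least 4-fold higher, none was at least 4-fold lower, and the median log2 ratio was 1.29 against -0.78 over all tested genes. The list summed to 13048 CPM in these cells against 2471 in the rest. The 8 were Ifi27l2a (2616 CPM (2552 to 2681) in these cells against 138 CPM (136 to 141) in the rest), the membrane protein Ifitm3, which blocks virus entry (3545 CPM in these cells and 587 in the rest), tetherin Bst2 (1170.3 CPM in these cells and 153 in the rest), the ubiquitin-like Isg15 (1023 CPM in these cells and 156 in the rest), Ifi27 (1407 CPM in these cells and 212 in the rest), the transcription factor Irf7 (405 CPM in these cells and 50.8 in the rest), Ifit3 (540.3 CPM in these cells and 124 in the rest) and Gbp3 (272 CPM in these cells and 48.1 in the rest). By TMM 11 and by the median of ratios 12 of the 24 were higher. Ifit3 and Gbp3 belong to families of close copies and are uncertain as single genes. Ifitm3 and Bst2 were found in 202 and 199 of 205 cells, against 46.9% and 28.1% of the rest. Isg15 was found in 140 of 205 cells (68.3%, 61.4 to 74.6) and at a lowest, median and highest level of 0, 4.59 and 65.4 UMIs per 10000. Other genes of the list were less than 4-fold apart, among them Irf1 (12.4 CPM in these cells and 19 in the rest) and Rsad2 (28.5 CPM in these cells and 61.4 in the rest). Ependymal-marked cells had a summed level of 11617 CPM, endothelial-marked cells 5533, oligodendrocyte-marked cells 1721 and astrocyte-marked cells 1478.

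**Figure D3:**
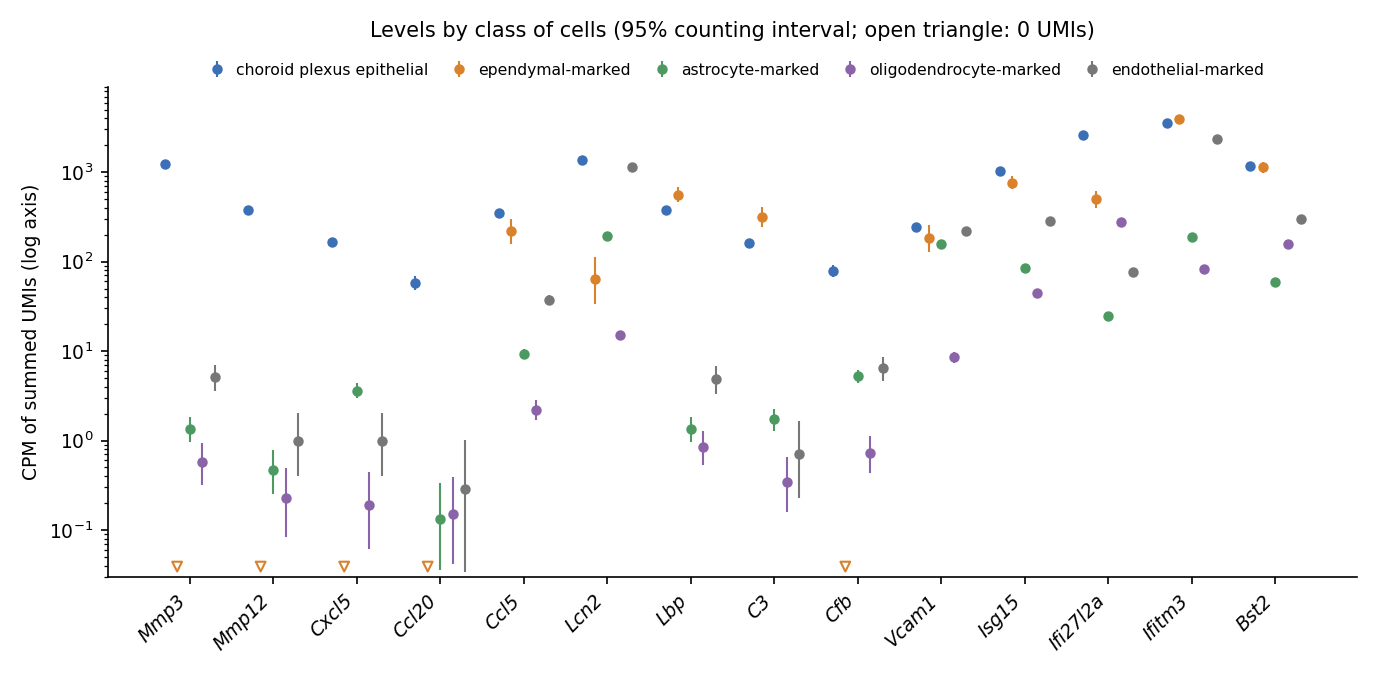
Points are CPM of UMIs summed over each class of CD45-negative cells, on a log axis, for 14 genes, with 95% counting intervals as bars; open triangles mark 0 UMIs. Of the 5 classes, choroid plexus epithelial cells had the highest measured level of Mmp3, Mmp12, Cxcl5 and Ccl20, while Ifitm3 and Bst2 were about as high in the 22 ependymal-marked cells.

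Antigen presentation genes had 1 of 11 tested genes at least 4-fold higher, the immunoproteasome subunit Psmb8 (445 CPM in these cells and 73.1 in the rest), and none at least 4-fold lower, with a median log2 ratio of 0.50. By TMM or the median of ratios 2 were higher. Class I genes stood close to the rest, with B2m at 446 CPM in these cells and 385 in the rest and H2-K1 at 294 CPM in these cells and 204 in the rest. Class I genes have near-identical copies that may share reads, so single members are uncertain. Class II genes were near 0, with H2-Aa at 0 UMIs, H2-Ab1 at 2 (0 in the 199 cells), H2-Eb1 at 1 and Cd74 at 18 UMIs in the 205 cells.

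Receptors for cytokines and interferons were not high. Of 20 tested, none was at least 4-fold higher and 9 were at least 4-fold lower, with a median log2 ratio of -1.78. By TMM 8 and by the median of ratios 7 were lower. Ifnar2 stood at 63.2 CPM in these cells and 72.3 in the rest and Il10rb, a chain shared by receptors for IL-10 and lambda interferons, at 44.2 CPM in these cells and 24.3 in the rest, while Ifnar1 (8.27 CPM in these cells and 56.3 in the rest), Ifngr1 (11.2 CPM in these cells and 44.4 in the rest), Osmr (9.09 CPM in these cells and 59.9 in the rest), Il6st (18.2 CPM in these cells and 76.9 in the rest) and Lifr (8.68 CPM in these cells and 88.3 in the rest) were lower, Ifngr1 by just under 4-fold. Il17rc, a chain of the IL-17 receptor, stood at 16.5 CPM in these cells and 7.97 in the rest and its partner Il17ra at 4.13 CPM in these cells and 39.3 in the rest.

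Genes of early stress and of division were low. Of 18 immediate early genes, which are known to rise within minutes of stimulation and during tissue digestion, none was at least 4-fold higher and 12 were at least 4-fold lower, with a median log2 ratio of -2.24, with Fos at 7.85 CPM in these cells and 74.7 in the rest, Jun at 39.7 CPM in these cells and 278 in the rest and Egr1 at 9.51 CPM in these cells and 69.4 in the rest. By TMM or by the median of ratios the number lower was 6 in each case. Of 13 glucocorticoid-responsive genes, with a median log2 ratio of -2.06, 7 were at least 4-fold lower, among them Zbtb16 (4.55 CPM in these cells and 75.2 in the rest) and Klf9 (109 CPM in these cells and 523 in the rest), and the 1 gene at least 4-fold higher was Lcn2. By TMM 2 and by the median of ratios 1 of them were lower. Cell cycle genes had 7 of 11 tested at least 4-fold lower and none higher, with a median log2 ratio of -3.44. The proliferation marker Mki67 had 0 UMIs, and Top2a had 1 UMI in the 205 cells against 27.2 CPM in the rest. The cell cycle list summed to 266 CPM in these cells, 209 in astrocyte-marked, 314 in oligodendrocyte-marked, 528 in ependymal-marked and 672 in endothelial-marked cells. Immediate early genes summed to 520, 606, 1423, 1903 and 5654 CPM in the same order. A cell cycle UMI was found in 79.0% of the 205 cells, which were deeper, 67.7% of the rest and 52.7% of astrocyte-marked cells.

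Genes lowest relative to the rest, among those with at least 200 CPM there, are best known from glia, neurons and vessels. Ctla2a stood at 14.9 CPM (10.4 to 20.6) in these cells against 659 CPM (654 to 664) in the rest, Slc7a11, the astrocyte cystine transporter, at 7.44 CPM in these cells and 212 in the rest, and Tril, a Toll receptor partner of glia, at 7.44 CPM in these cells and 209 in the rest. Others of the 10 lowest were Trim9, Luzp2, Lsamp, Mertk, S1pr1 and Ly6c1, at 24.3-fold (16.2 to 38.4) to 18.5-fold (14.8 to 23.4) lower. The nuclear RNA Malat1 stood at 10758 CPM (10627 to 10889) in these cells against 116844 CPM (116773 to 116916) in the rest, or 10.9-fold (10.7 to 11) lower, and Gm42418 at 9663 CPM in these cells and 16202 in the rest. Malat1 was also the gene with the largest variance over its mean among the cells, at a lowest, median and highest level of 1.62, 9.24 and 2308 UMIs per 10000.

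The 22 ependymal-marked cells also carried 4787 CPM of astrocyte and 2173 CPM of oligodendrocyte markers, beside 3946 CPM of ependymal ones, and the part of these in the comparison was not tested. Against them, 387 of 10984 tested genes or 3.52% were at least 4-fold higher in choroid plexus epithelial cells and 2704 or 24.6% at least 4-fold lower, with a median log2 ratio of -0.90. TMM moves the median to 0.06, and the counts to 1218 higher and 1265 lower. A gene with 10 CPM in choroid plexus epithelial cells and few UMIs in the ependymal-marked cells can pass on 1 or 2 UMIs there, and with such sums raised to 3 UMIs 264 were higher and 2825 lower. Highest were Ttr (126753 CPM in these and 162 CPM (109 to 231) in ependymal-marked cells), Enpp2 (4219 CPM in these and 37.7 CPM (15.2 to 77.8) in ependymal-marked cells) and Mmp3 (1231 CPM in these cells and 0 UMIs in ependymal-marked cells, at least 76.1-fold higher with the same limit of 3 UMIs over the ependymal-marked sum, the exact interval of the ratio starting at 61.8). They were followed by 2900040C04Rik, the dopamine signalling gene Ppp1r1b (482 CPM in these and 10.8 CPM (1.31 to 38.9) in ependymal-marked cells), Ooep, the imprinted cell cycle inhibitor Cdkn1c (412 CPM in these and 10.8 CPM (1.31 to 38.9) in ependymal-marked cells), Ace, Sulf1, a heparan sulfate editing enzyme (136 CPM in these and 5.39 CPM (0.136 to 30.0) in ependymal-marked cells), and Cox8b. Lowest were Spp2 and Sspo, which encodes SCO-spondin, the matrix protein of Reissner's fibre, each with 0 UMIs in the 205 cells. In the ependymal-marked cells Spp2 stood at 280.3 CPM (209 to 368) and Sspo at 216 CPM (154 to 294). Pitpnm3, whose product transfers phospholipids (2 UMIs in the 205 cells and 0 in the 199), the intermediate filament gene Nes (3.31 CPM in these and 205 CPM (145 to 281) in ependymal-marked cells), Cd44 (7.03 CPM in these and 426 CPM (337 to 531) in ependymal-marked cells), Dnah3, Frmpd2, Rian, Adamts20 and Anxa8 followed. Nes, Cd44, Dnah3, Frmpd2, Adamts20 and Anxa8 were lower still in the 199 cells, at 1.72, 3.87, 0, 0, 0.860 and 0 CPM. The ependymal-marked sum is small, with a median of 6050.5 UMIs per cell over 22 cells.

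Cells differed among themselves in Ttr and in inflammatory transcripts. With 200 of the 205 cells thinned to 2000 UMIs (5 were too shallow), the genes with the largest variance over mean were Malat1 (160.4), Ttr (106.5), Apod (23.8), Gm42418 (16.9), Fth1 (13.9), Lcn2 (13.0), Enpp2 (12.2) and Slpi (12.1), and among those that followed were S100a6 (399.7 CPM in the 205 cells and 182 in the 199), Rgs5, Mt1, Mmp3 (8.32), Mmp12 (8.15) and Vtn. Rgs5 and Vtn mark pericytes, and single cells held up to 15 Rgs5 UMIs of 2000. Lcn2 reached 44 UMIs of 2000 and was at 0 in the thinned counts of 109 of the 200 cells.

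**Figure D4:**
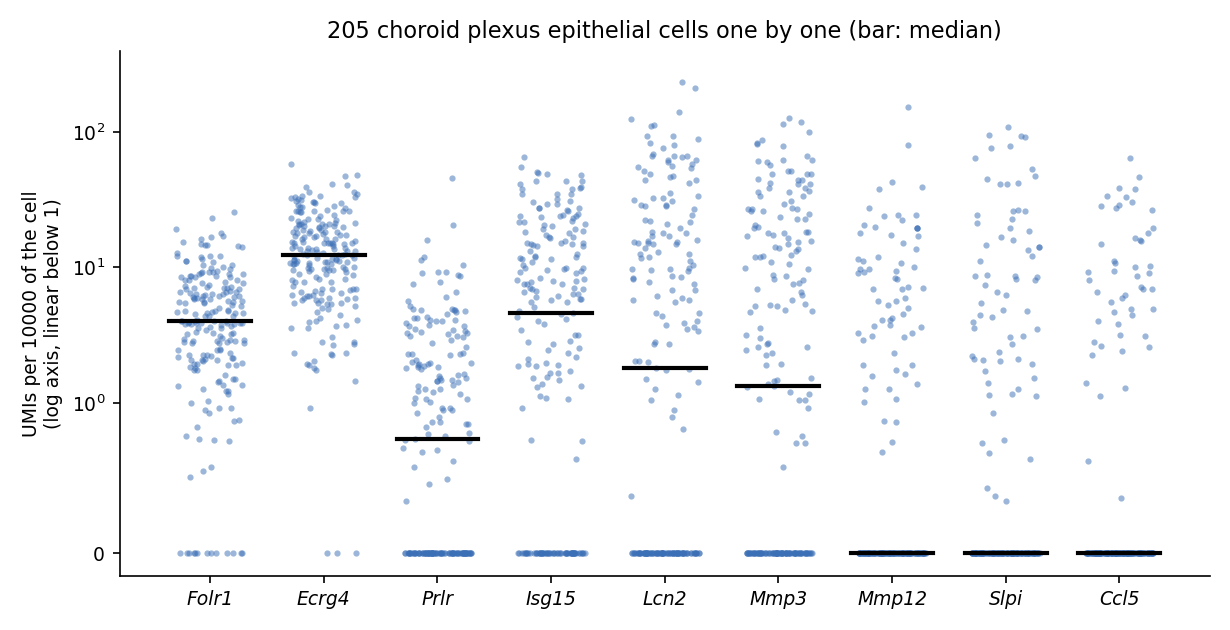
Each point is 1 of the 205 cells, with the level of a gene in UMIs per 10000 of the cell on the y axis (log axis, linear below 1); bars are medians. Folr1 and Ecrg4 were found in nearly all cells, while Mmp12, Slpi and Ccl5 had a median of 0 and single cells above 60.

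To see which transcripts went together, the 199 cells with Ttr were divided by a UMI of Mmp3. This division is a description chosen after the values were seen. The cells had first been divided in turn by a UMI of 5 genes (Slpi, Mmp3, Esm1, Prlr and Cox8b), and Mmp3 was carried forward. The 6 cells without Ttr were left out afterwards, because with them the lower genes were led by ependymal genes. The number of genes depends strongly on the dividing gene. Among genes with at least 50 CPM in either sum, 35 of 2951 or 1.19% were at least 4-fold higher in the 115 cells with an Mmp3 UMI than in the 84 without, and 8 or 0.271% at least 4-fold lower. Rule genes were not left out of this count, and the rule gene Slpi is among the 35. Division by Slpi gave 5 higher and 2 lower, by Esm1 36 and 17, by Prlr 1 and 19, by Cox8b 1 and 8, and by Lcn2, added later, 21 and 5. Of the 35 genes, 13 were also at least 4-fold higher by Esm1, 13 by Lcn2 and 3 by Slpi, and 12 were at least 4-fold lower in cells with a Prlr UMI. Cells with an Mmp3 UMI were deeper, at a median of 11267 UMIs against 8763 in cells without. After thinning every cell to 2000 UMIs before the division the counts were 69 higher and 53 lower, over 86 cells with an Mmp3 UMI. With each gene taken without the cell that held most of its UMIs on the higher side, 29 of the 35 and 3 of the 8 stayed past 4-fold.

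Cells with an Mmp3 UMI had more of the other metalloproteinase, of the protease inhibitor Slpi and of chemokines. Mmp12 stood at 624 CPM (584 to 666) with an Mmp3 UMI against 11.2 CPM (5.36 to 20.5) without, or 55.9-fold (30.2 to 117) higher, and at 10.4-fold when cells were thinned before the division. Slpi stood at 1044 CPM (992 to 1099) with an Mmp3 UMI against 30.2 CPM (19.9 to 43.9) without. As a Slpi UMI also counted towards choosing the cells, its values here are a description only. Ccl5 stood at 586 CPM (547 to 627) with an Mmp3 UMI against 10.1 CPM (4.6 to 19.1) without, Cxcl5 at 279.8 CPM (253 to 309) with an Mmp3 UMI against 5.58 CPM (1.81 to 13.0) without, and Ccl2 at 122 CPM with and 3.35 without an Mmp3 UMI. Esm1 stood at 251 CPM with and 3.35 without an Mmp3 UMI, and Saa3 at 173 CPM with and 3.35 without an Mmp3 UMI. The values in cells without rest on 3 UMIs each for Esm1, Saa3 and Ccl2, and with thinning the ratios of Esm1 and Saa3 were 7.41 and 6.70. Il1rn, the antagonist of the IL-1 receptor, which was named after its values were seen, stood at 95.8 CPM (80.5 to 113) with an Mmp3 UMI against 1 UMI in cells without, a ratio of 85.8-fold (15.1 to 3414). Of 68 cells with an Mmp12 UMI 65 also had one of Mmp3, as did 48 of 50 cells with Ccl5 and 63 of 71 with Slpi.

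Lcn2, the complement genes Cfb and C3 and interferon-stimulated genes stood higher in cells with an Mmp3 UMI. Lcn2 stood at 2016 CPM (1943 to 2091) with an Mmp3 UMI against 364 CPM (326 to 406) without, Cfb at 129 CPM (111 to 149) with an Mmp3 UMI against 5.58 CPM (1.81 to 13.0) without, and C3 at 241 CPM (216 to 267) with an Mmp3 UMI against 40.2 CPM (28.2 to 55.7) without. Isg15 stood at 1556 CPM (1492 to 1622) with an Mmp3 UMI against 238 CPM (207 to 272) without, or 6.54-fold (5.68 to 7.56) higher and 4.09-fold with thinning. Of 20 interferon-stimulated genes tested, 5 were at least 4-fold and 16 at least 2-fold higher and none lower, with a median log2 ratio of 1.55 against -0.04 over all 2951 genes, of which 137 were at least 2-fold higher. Of 8 antigen presentation genes 7 were at least 2-fold higher, and of 10 chemokines and adhesion molecules 7. Of 6 complement genes 3 were at least 2-fold higher and 1 at least 2-fold lower, and the list summed to 1901 CPM with and 1663 without an Mmp3 UMI. In summed UMIs the choroid plexus markers went slightly the other way. Of 15, 4 were at least 2-fold lower against 63 of all 2951 genes and none at least 2-fold higher, with a median log2 ratio of -0.49. In cells without an Mmp3 UMI, 1 cell held 86194 of the 895377 UMIs, and the list was not examined without it. Over single cells the median Ttr level was 1235 UMIs per 10000 with and 1035 without an Mmp3 UMI.

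The 8 genes at least 4-fold lower in cells with an Mmp3 UMI were Prlr, at 97.2 CPM (81.7 to 115) with an Mmp3 UMI against 411 CPM (370.1 to 455) without, the bicarbonate transporter Slc4a5 (16.1 CPM with and 78.2 without an Mmp3 UMI), the matrix proteoglycan Bgn (16.1 CPM with and 132 without an Mmp3 UMI), the calcification inhibitor Mgp (29.4 CPM with and 126 without an Mmp3 UMI), Gm29538 (23.8 CPM with and 107 without an Mmp3 UMI), Klk6 (7.69 CPM with and 54.7 without an Mmp3 UMI), Galm (19.6 CPM with and 84.9 without an Mmp3 UMI) and Meig1 (12.6 CPM with and 53.6 without an Mmp3 UMI). Several of these rest on 1 cell. One cell without an Mmp3 UMI held 179 of the 368 Prlr UMIs, and without it Prlr stood at 234 CPM in cells without an Mmp3 UMI, 2.40-fold above cells with one. Leaving out in the same way the cell with the most UMIs of each gene, Gm29538, Slc4a5 and Galm stayed at least 4-fold lower, while Meig1, Mgp, Bgn and Klk6 stood at 3.85, 1.76, 1.84 and 1.19-fold. Mgp turned to 1.67-fold higher when cells were thinned before the division. Less than 4-fold apart were the bicarbonate transporter Slc4a10 (41.3 CPM with and 108 without an Mmp3 UMI), the retinol dehydrogenase Rdh5 (127 CPM with and 313 without an Mmp3 UMI) and Sostdc1 (68.6 CPM with and 155 without an Mmp3 UMI). Summed marker lists of other cell types differed between these cells too. The ependymal list holds Rsph1, Dynlrb2 and Pifo, and the fibroblast list Igf2, which choroid plexus epithelial cells also express, as described above. Neuron markers summed to 348 CPM in cells with an Mmp3 UMI against 121 in those without, ependymal markers to 495 with and 787 without, and fibroblast markers to 1092 with and 1608 without, and their part in the differences was not tested. Microglia markers summed to 21.7 CPM with and 31.3 without an Mmp3 UMI, and those of other leukocytes to 2.80 with and 7.82 without.

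**Figure D5:**
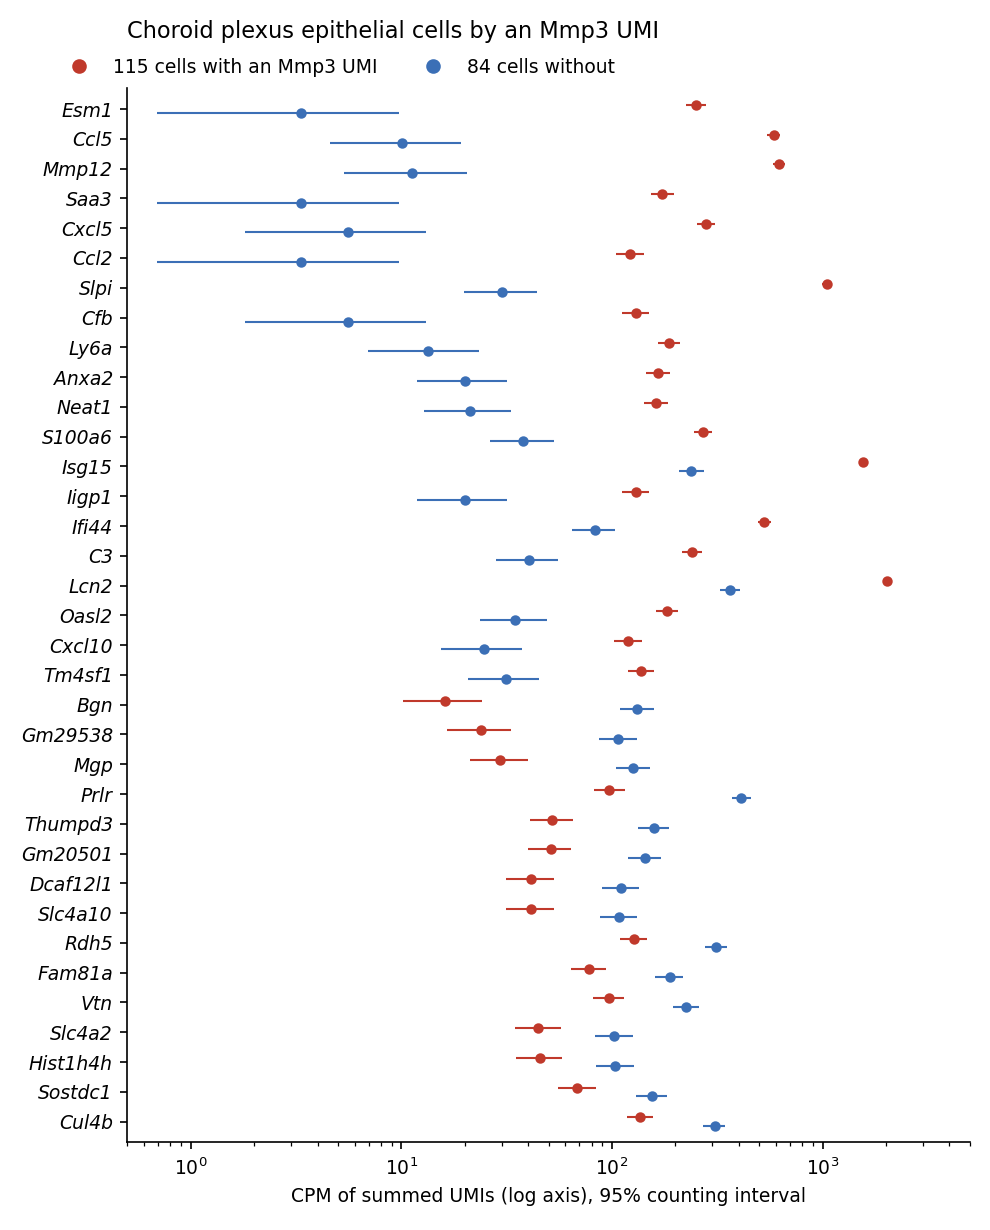
Points are CPM of UMIs summed over the 115 cells with an Mmp3 UMI (red) and the 84 without (blue), on a log axis, with 95% counting intervals, for the 20 genes with the highest ratio and the 15 with the lowest among those with at least 100 CPM in the higher. Lcn2, Isg15 and Slpi are above 1000 CPM in cells with an Mmp3 UMI and below 400 in cells without.

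Levels were also compared cell by cell, as a description without a test, over 194 of the 199 cells thinned to 2000 UMIs. These cells come from 1 library and were brought to equal depth. Spearman's rho with Mmp3 was 0.59 for Mmp12, 0.54 for the rule gene Slpi, 0.52 for Isg15, 0.49 for Ccl5 and 0.48 for Lcn2. It was -0.22 for Prlr and for Cox8b, 0.12 for Ttr and -0.04 for Folr1, which in counts this sparse are weak. Isg15 and Lcn2 had a rho of 0.49 with each other.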

How the data were processed

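Single-cell libraries of the CD45-negative and the CD45-positive cells of mouse brain were analysed, 1 library per group. The deposited values are UMI counts per gene and barcode, made by the authors, per the file headers with version 6.1.2 of Cell Ranger, on mm10 per the submitters' processing notes, from 10x 3' v3 libraries per the labels' protocols. The annotation release and the cell calling settings are not given in the labels or headers. The CD45-negative matrix held 92691820 UMIs in 14524 barcodes and the CD45-positive one 76182401 in 8662. Mitochondrial genes were those with the prefix mt-.

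Cells were kept at 1000 or more UMIs and at most 20% mitochondrial UMIs, and choroid plexus epithelial cells were taken by the rule given with them. Members, lists, markers and most comparisons were chosen with earlier results of these data known. UMIs were summed per class and compared as CPM, for genes with at least 10 CPM in either sum (50 CPM for the division by Mmp3), against a limit of 4-fold. A sum of 0 was set to a floor of 3 UMIs in ratios. Ependymal-marked cells have a UMI of at least 4 of 10 ependymal markers. Named genes were the 25 highest and 10 lowest by ratio to the rest (at least 100 CPM in the members, 200 in the rest), the 15 most abundant, the 10 highest and 10 lowest against ependymal-marked cells, the 15 with the largest variance over mean, the rule genes, and from each list the most abundant genes, those past 4-fold and those a role needs. The division by Mmp3, its 50 CPM limit, the other marked classes and the motifs were chosen after seeing the data. A few genes that these rules name are not reported here. Doublets were left in, and Scrublet (scanpy 1.11.5) served as an alternative, as did TMM (edgeR 4.0.16). Work was done in Python 3.11.15 with numpy 2.4.6, scipy 1.17.1 and pandas 2.3.3, and the summing and ratio code was checked on simulated counts. Gene positions are from GENCODE for the same build.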

Additional observations from a re-analysis of the deposited data

How the results depend on the processing

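The counts of genes past 4-fold depended on the scaling. By TMM, 1557 genes were lower than in the rest, and 1218 were higher and 1265 lower than in ependymal-marked cells. By the median of ratios, 1175 were higher and 1333 lower than in the rest, and 1189 higher and 1277 lower than in ependymal-marked cells. With no filter on low genes, 4157 were higher than in the rest. The division by a UMI of Mmp3 depended on the cells and the gene used. It gave 26 lower genes with all 205 cells, 69 higher and 53 lower after thinning, 21 and 5 by Lcn2, 5 and 2 by Slpi, 1 and 19 by Prlr, 17 lower by Esm1 and 1 higher by Cox8b, and 3 lower genes, Prlr not among them, when the cell with the most UMIs of each gene was left out. With all 205 cells, Anxa2 turned to a ratio of 0.742 and S100a6 to 0.464, Neat1 to 0.826 by Lcn2, and Mgp to 1.67 and Vtn to 1.05 after thinning. The causes were not tested. Of the other single ratios over the rest, 235 stayed within their counting interval under an alternative, 115 moved beyond it and 0 of those counted changed direction. That count does not make every direction independent of the scaling. TMM and the median of ratios divide each ratio over the rest by 0.692 and 0.624. Ratios just under 1, such as those of Serping1, Ifnar2 and Ccl2, then pass 1. Leaving out the 6 cells without Ttr did turn the ciliary gene Fam183b, as given above, from at least 4-fold higher to at least 4-fold lower. Among those of the division, 89 stayed and 46 moved. No paired analysis was possible because each group is 1 library. Depth limits genes below about 1.24 CPM, which is 3 UMIs, the limit used for a count of 0, in the 205 cells.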
